A study of Mus musculus with 20 samples.

Results

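Histone and DNA modifying enzymes were taken as the genes whose symbols belong to the families Hdac, Kdm, Kmt, Kat, Setd, Dnmt, Tet, Prmt, Ehmt and Ezh, each followed by a number (Tet1 to Tet3, Ehmt1 and Ehmt2, and Ezh1 and Ezh2 for the last families). Of 81 symbols of the reference that match, 72 had at least 1 probe on the array (109 probes), of 20972 symbols with a probe in all. The number tested was 71 of 15102 genes. Kdm5d was too dim to be tested, and Kmt2a had no probe. The symbol rule also takes in Dnmt3aos, an RNA antisense to Dnmt3a, and Dnmt3l, a cofactor of the DNA methyltransferases that has no catalytic activity of its own.

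The study asked how sensitization to methamphetamine (Meth) and the HIV-1 protein Tat, alone and together, alter gene expression in mouse brain. Each of 4 groups had 5 male C57BL/6J mice with 1 one-colour array per mouse, and all mice carried a doxycycline-dependent activator under the astrocyte promoter GFAP and received doxycycline at 100 mg/kg for 7 days. The Tat+ mice carried the inducible Tat transgene in addition and the Tat− mice did not, and Meth was given at 2 mg/kg against 0.9% saline (Sal). The labels give an age of 6 to 7 weeks, a brain hemisphere and 24 h after the last injection, whereas the methods give 3 to 5 months, caudate putamen and 1 h after a challenge of 1 mg/kg Meth that followed 7 days of abstinence. By the methods all mice had this challenge, so that Meth and Sal name the 7 days of injections before it. The groups are Tat−/Meth, Tat−/Sal, Tat+/Meth and Tat+/Sal. The promoter limits the model to Tat made in astrocytes.

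The 5 Tat−/Meth arrays were the only arrays on slide 1. Slide 2 held the 5 Tat−/Sal arrays and Tat+/Meth replicates 1 to 3, and slide 3 held Tat+/Meth replicates 4 and 5 and the 5 Tat+/Sal arrays. In every comparison with Tat−/Meth, group and slide cannot be told apart. The saline groups were on different slides as well, which only the Tat+/Meth arrays link. The bright control spots of slide 1 had a log2 signal of 14.66 to 15.06, against 16.8 to 17.42 on the other slides. Markers of striatal neurons were bright on all arrays (summed log2 level 19.8 to 20.2 over 9 genes), while the summed level of 4 cortical neuron markers was 8.65 to 11.14. The summed level of 5 astrocyte markers was 15.31 to 15.60 in Tat−/Meth and 15.05 to 15.25 in the other groups, and 3 of the 5 were called higher in Tat−/Meth vs. Tat−/Sal. Of 4 neuronal markers only Snap25 was called (mean 16.4 in Tat−/Meth and 17.1 in Tat−/Sal, lower), while Syt1 was 15.7 and 15.8, Rbfox3 15.8 and 15.7, and Tubb3 14.4 and 14.2. The part of astrocyte content in the results was not tested, and fewer cells of a type and less RNA per cell cannot be told apart in whole tissue. Arrays of a group correlated at 0.985 to 0.996 over all genes.

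DNA in the nucleus is wound around histones, whose tails carry acetyl and methyl groups. Acetyltransferases (Kat) add and deacetylases (Hdac) remove acetyl groups, lysine methyltransferases (Kmt, Setd, Ehmt, Ezh) and demethylases (Kdm) do the same for methyl groups on lysine, and Prmt enzymes methylate arginine. Dnmt enzymes methylate cytosine in CG dinucleotides and Tet enzymes oxidise that mark. In striatum these enzymes are known for their part in lasting responses of neurons to psychostimulants.

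Of the 71 members tested, 70 were well above background on all 20 arrays (the other, Kdm4d, on 3 of 5 in Tat+/Sal). Signals are given as log2 units after scaling of each array to its 75th percentile. In Tat−/Sal the group means ran from 6.21 (Kdm4d) to 15.9 (Ehmt2), with a median of 11.65, and the median SD between arrays of a group was 0.112. Members were called changed where limma gave an adjusted *p* (Benjamini–Hochberg, over all 15102 genes) under 0.05.

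On the brightest probe of each gene, the 4 members that fell more than 2-fold in Tat−/Meth were Tet3, Kdm5c, Ehmt1 and Dnmt3l. The sequence of 250 bases before the transcription start of each is shown because these genes carry the largest differences and because their CG content differs. CG dinucleotides, the target of Dnmt and Tet enzymes, are in capitals. Sequences are from RefSeq (build GRCm38.p6), 5′ to 3′ on the strand of the gene. They are chr6:83441679-83441928 (− strand), chrX:152232977-152233226 (+ strand), chr2:24919610-24919859 (− strand) and chr10:78042037-78042286 (+ strand, the first of 3 start sites). The Tet3 start site used here lies inside the annotated gene (chr6:83362373-83457208).
Tet3: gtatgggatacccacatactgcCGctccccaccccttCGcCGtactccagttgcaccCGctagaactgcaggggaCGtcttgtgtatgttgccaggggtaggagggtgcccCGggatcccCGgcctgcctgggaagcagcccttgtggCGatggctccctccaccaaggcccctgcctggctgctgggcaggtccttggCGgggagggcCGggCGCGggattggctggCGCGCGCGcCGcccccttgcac
Kdm5c: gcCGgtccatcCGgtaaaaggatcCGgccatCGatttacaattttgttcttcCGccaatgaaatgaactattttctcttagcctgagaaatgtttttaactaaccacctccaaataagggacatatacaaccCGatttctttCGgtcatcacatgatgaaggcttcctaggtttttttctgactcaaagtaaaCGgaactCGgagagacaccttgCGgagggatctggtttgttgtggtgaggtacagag
Ehmt1: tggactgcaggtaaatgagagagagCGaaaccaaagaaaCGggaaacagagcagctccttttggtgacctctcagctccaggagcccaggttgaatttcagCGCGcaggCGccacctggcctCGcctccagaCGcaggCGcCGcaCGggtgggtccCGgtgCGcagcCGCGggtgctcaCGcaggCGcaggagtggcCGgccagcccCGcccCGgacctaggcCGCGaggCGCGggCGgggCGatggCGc
Dnmt3l: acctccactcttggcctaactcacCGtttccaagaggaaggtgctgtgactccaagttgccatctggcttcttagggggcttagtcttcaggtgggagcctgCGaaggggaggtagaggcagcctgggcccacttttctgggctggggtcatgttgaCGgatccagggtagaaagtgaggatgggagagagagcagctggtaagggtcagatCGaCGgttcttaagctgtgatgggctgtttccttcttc

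The stretch before Ehmt1 held 26 CG dinucleotides and that before Tet3 17, with 69.2% and 69.6% G and C. The stretch before Kdm5c held 10 (43.6% G and C) and that before Dnmt3l held 5 (55.6%). Windows of 300 bases (250 before to 50 after a start) were found for 59 members, 85 windows in all, and held a median of 22 CG dinucleotides, against 7 in all 32851 windows of the table. All windows cover 27025 genes, tested here or not, whereas the members are genes tested here, so these sets and the motif shares below are unlike. The median was 18.5 in 16 windows of 12 members called lower in Tat−/Meth vs. Tat−/Sal, 30.5 in 32 windows of 24 members called higher, and 17 in 37 windows of 23 members not called. Other genes called lower or higher were not counted in this way, so the split is not a trait of the members. The motif TATAAA, on either strand, was present in 3 member windows (3.53%) against 13.6% of all windows, and GGGCGG in 63.5% against 35.7%. TGAGTCA or its reverse complement was in 8 member windows (9.41%, against 5.2%), among them that of Kdm5c. CACGTG was in 10 (11.8%, against 7.15%) and TGACGTCA in 1, that of Prmt9 (1.18%, against 1.79%). These are matches of letters only.

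Meth sensitization without Tat was compared with saline injections first (Tat−/Meth vs. Tat−/Sal). On the brightest probe of each gene, 4 members fell by 2.43 to 3.91-fold. They were the DNA demethylation enzyme Tet3, the H3K4 demethylase Kdm5c, the H3K9 methyltransferase Ehmt1 and the cofactor Dnmt3l. Second probes of Tet3, Kdm5c and Ehmt1 were not called lower, and Dnmt3l had no second probe (values further below). Higher values were called in 29 members, with Prmt5, Tet2 and Kmt5a at the top, by at most 1.41-fold on the scale used here. In all, 41 of 71 members were called (57.7%, against 50.2% of all genes tested), 29 higher (40.8%, against 35%) and 12 lower (16.9%, against 15.3%). Changes above 2-fold were called in 4 members lower (5.63%, against 6.48%) and 0 higher (against 0.371%). The 2 groups did not overlap in 30 members (42.3%, against 36.2%), and 45 had an unadjusted *p* under 0.05 (63.4%, against 56.4%). The members' median log2 fold change was 0.13, beside 0.14 over all genes.

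**Figure D1:**
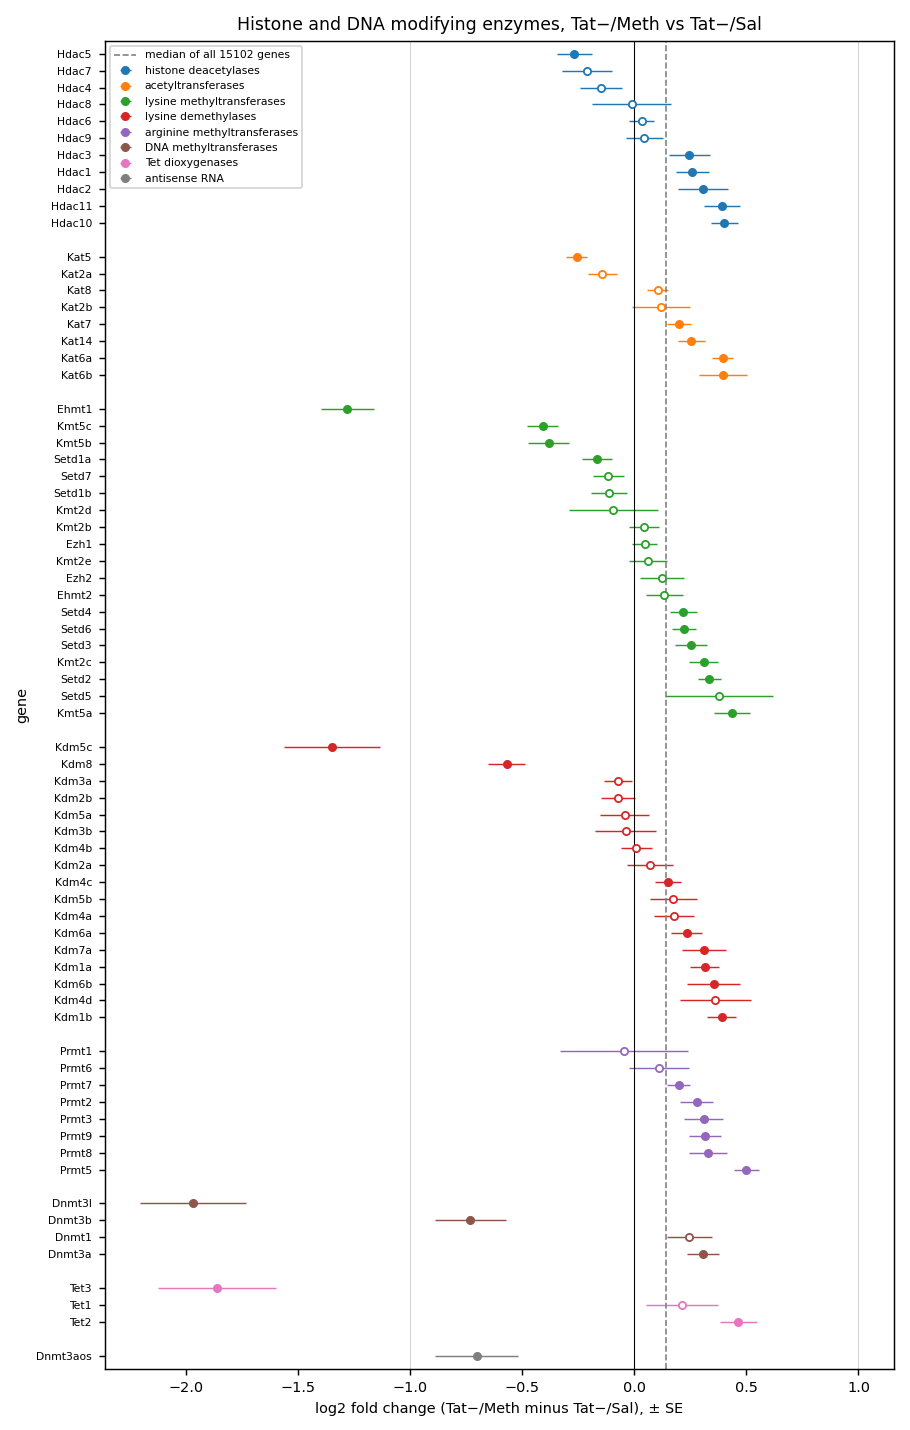
Log2 fold change of the 71 members in Tat−/Meth vs. Tat−/Sal (x axis, log2 units), 1 row per member, grouped by role; points are limma estimates with standard errors, filled where called and open where not. The dashed line is the median of all genes tested (0.14), and Dnmt3l, Tet3, Kdm5c and Ehmt1 lie farthest to the left, from −1.97 to −1.28.

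Because all genes together sat 0.14 above 0, the 29 higher members were also read against that median. They lay 0.01 to 0.36 above it, and the 12 lower members 0.31 to 2.11 below it. All 29 were under 1.5-fold, as were 6 of the 12 lower ones. Under median scaling 11 members were called higher (15.5%, against 18.9% of all genes) and 6 lower (8.45%, against 9.21%), and under quantile normalization 31 (43.7%, against 37.2%) and 14 (19.7%, against 14.9%). With no scaling 0 were called higher (against 0.827%) and 33 lower (46.5%, against 47.2%). Relative to the 75th percentile, median scaling moved all 71 members by the same 0.12 and no scaling by −0.42, so that a change of sign under them restates the size of an estimate. Of the 29 higher members, those above 0.42 were Prmt5, Tet2 and Kmt5a (0.08, 0.04 and 0.02 with no scaling). Higher values under 0.42 are thus higher only on a scale set by the 75th percentile, the quantiles or the median.

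**Figure D2:**
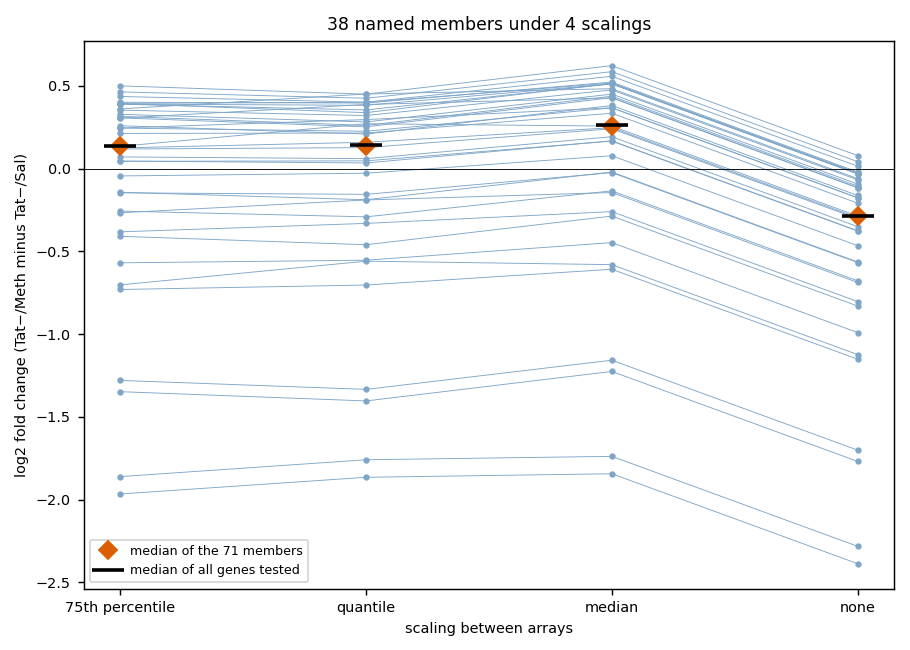
Log2 fold change in Tat−/Meth vs. Tat−/Sal (y axis, log2 units) of the members singled out by the naming rule, called or not (blue lines, 1 per member), under 4 scalings (x axis), with the median of the 71 members (diamonds) and of all genes (black bars at 0.14, 0.15, 0.26 and −0.29). Median scaling and no scaling move every line by the same amount, and those of Dnmt3l, Tet3, Kdm5c and Ehmt1 lie below −1 in each scaling.

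The counts by family that follow stand beside 35% of all genes called higher and 15.3% lower, with a median of 0.14, and the families were not tested against other genes. Each value is that of the brightest probe of the gene, which other probes, given further below, did not always follow. Among Tet dioxygenases, which oxidise methylated cytosine, Tet3 fell and Tet2 rose. Tet3 signal in replicates 1 to 5 was 7.56, 7.42, 7.41, 7.41 and 8.26 in Tat−/Meth and 9.34, 9.31, 9.58, 9.39 and 9.75 in Tat−/Sal. Every Tat−/Meth array was below every Tat−/Sal array, and replicate 5 was the highest of its group. The log2 fold change was −1.86 (SE 0.262, 3.63-fold lower, adjusted *p* = 1.33e-05). Tet2 signal was 11.80, 11.80, 11.90, 11.92 and 11.70 in Tat−/Meth and 11.36, 11.43, 11.28, 11.43 and 11.30 in Tat−/Sal, again without overlap. Tet2 was 1.38-fold higher (SE 0.0814 log2 units, adjusted *p* = 0.000133), with no scaling 0.04 and not called. Tet1 was not called (log2 fold change 0.21, adjusted *p* = 0.275).

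Of 4 DNA methyltransferase genes, 2 fell and 1 rose. Dnmt3l signal was 6.07, 5.95, 6.01, 5.76 and 7.02 in Tat−/Meth and 7.97, 8.04, 8.29, 7.82 and 8.52 in Tat−/Sal. All Tat−/Meth arrays lay below all Tat−/Sal arrays, with replicate 5 again the highest of the 5, and the log2 fold change was −1.97 (SE 0.236, 3.91-fold, adjusted *p* = 2.12e-06). The de novo methyltransferase Dnmt3b was 5.79, 6.10, 6.38, 6.50 and 6.80 in Tat−/Meth and 7.14, 7.08, 6.79, 6.87 and 7.35 in Tat−/Sal. Only Tat−/Meth replicate 5 reached the Tat−/Sal range, and the fold was 1.66 lower (log2 fold change −0.73, SE 0.159, adjusted *p* = 0.000979). The Dnmt3b call was kept in 11 of 13 alternatives, where its estimates ran from −1.15 to −0.24. Dnmt3a, the other de novo enzyme, was 12.99, 13.05, 13.21, 13.13 and 12.94 in Tat−/Meth and 12.70, 12.83, 12.59, 12.83 and 12.84 in Tat−/Sal. Its groups did not overlap and it was 1.24-fold higher (adjusted *p* = 0.00156), with no scaling −0.11. The maintenance enzyme Dnmt1 was not called (log2 fold change 0.25, adjusted *p* = 0.0517), and was called in 5 of 20 fits that left out 1 array (lowest adjusted *p* = 0.0271, without Tat−/Meth replicate 4). The antisense RNA Dnmt3aos was 1.63-fold lower (log2 fold change −0.70, SE 0.186, adjusted *p* = 0.0044), and Tat−/Meth replicate 5, at 7.91, lay above the other 4 arrays of its group (6.76 to 7.07).

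**Figure D3:**
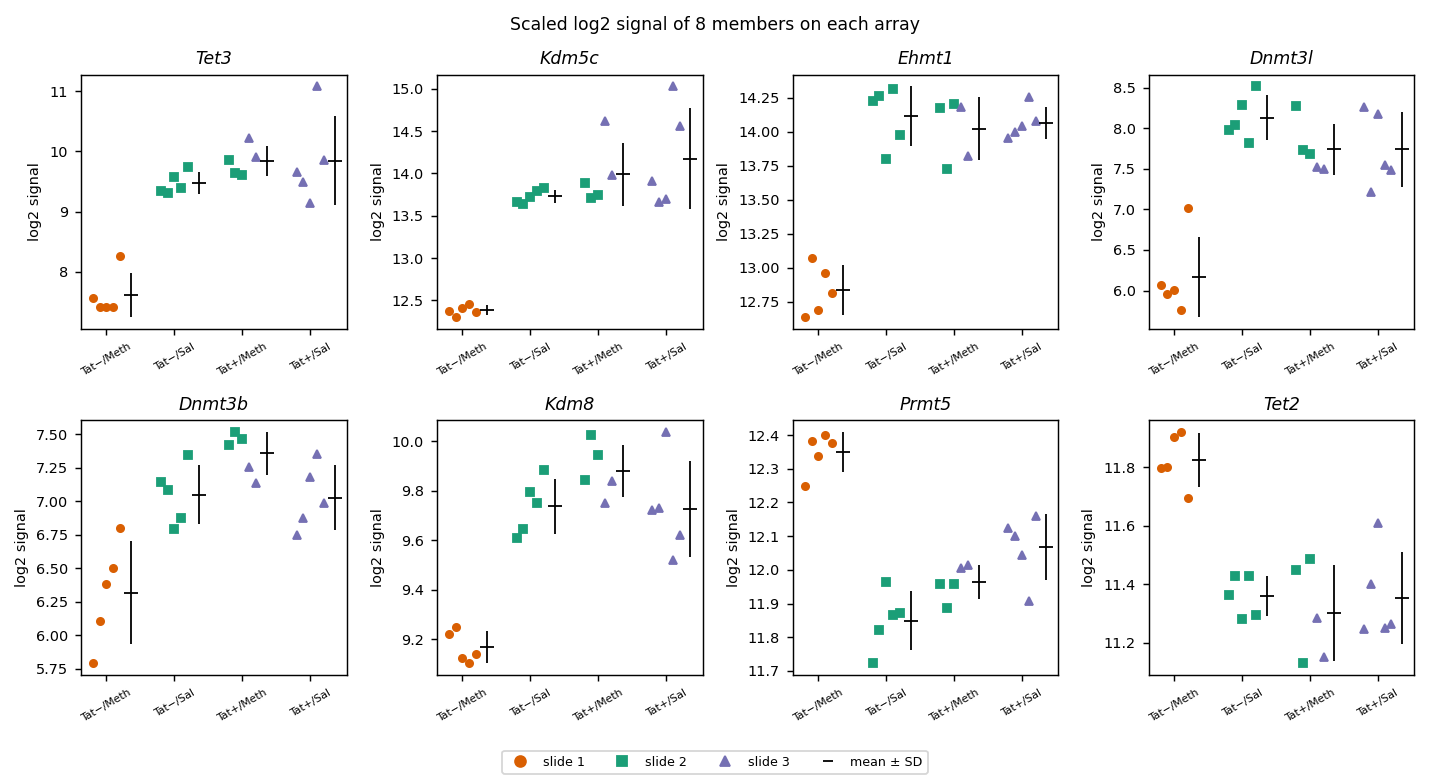
Log2 signal (y axis) of Tet3, Kdm5c, Ehmt1, Dnmt3l, Dnmt3b, Kdm8, Prmt5 and Tet2 on each of the 20 arrays by group (x axis), with the group mean and SD (n = 5). The Tat−/Meth arrays of Tet3, Kdm5c, Ehmt1, Dnmt3l and Kdm8 lie below those of the other 3 groups, and those of Prmt5 and Tet2 above them.

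Of 19 lysine methyltransferases, 6 rose, 4 fell and 9 did not pass the test (median log2 fold change 0.06). Ehmt1, which with Ehmt2 places mono- and dimethyl marks on H3K9, was 12.64, 13.07, 12.69, 12.96 and 12.82 in Tat−/Meth and 14.23, 14.26, 13.80, 14.32 and 13.97 in Tat−/Sal. The highest Tat−/Meth array was below the lowest Tat−/Sal array, and the log2 fold change was −1.28 (SE 0.117, 2.43-fold, adjusted *p* = 7.17e-08). Its partner Ehmt2 was not called (log2 fold change 0.13, adjusted *p* = 0.176). The 3 enzymes of H4K20 methylation were all called on their brightest probes. Kmt5a, which places the first methyl group, was 1.35-fold higher (adjusted *p* = 0.000178). Kmt5b and Kmt5c, which add further ones, were 1.3-fold and 1.33-fold lower (adjusted *p* = 0.00221 and 9.84e-05). Probes of Kmt5b were called in opposite directions, and its mean over probes was above 0 (values further below). The 2 probes of Kmt5a differed by 0.440 in log2 fold change, beside 0.436 on its brightest, so its rise also belongs to that probe. Kmt5c was 11.63, 11.57, 11.74, 11.50 and 11.36 in Tat−/Meth against 12.01, 11.92, 11.98, 11.98 and 11.95 in Tat−/Sal, with no overlap. Setd2, the H3K36 trimethylase, was 1.26-fold higher (adjusted *p* = 4.05e-05). The Polycomb H3K27 methyltransferases Ezh1 and Ezh2 were not called (log2 fold changes 0.05 and 0.13, adjusted *p* = 0.521 and 0.295), with no scaling −0.37 for Ezh1.

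Of 17 lysine demethylases, 6 rose, 2 fell and 9 did not pass (median 0.15). Kdm5c, an X-linked H3K4 demethylase, was 12.38, 12.30, 12.41, 12.46 and 12.36 in Tat−/Meth and 13.66, 13.64, 13.72, 13.80 and 13.82 in Tat−/Sal. The gap between the groups was far wider than the spread in either, and the log2 fold change was −1.35 (SE 0.212, 2.54-fold, adjusted *p* = 4.44e-05). Kdm8, a JmjC protein, was 9.22, 9.25, 9.12, 9.10 and 9.14 in Tat−/Meth and 9.61, 9.65, 9.80, 9.75 and 9.89 in Tat−/Sal, again without overlap and 1.48-fold lower (adjusted *p* = 1.61e-05). The H3K4 demethylases Kdm1a and Kdm1b were 1.24-fold and 1.31-fold higher (adjusted *p* = 0.000646 and 6.87e-05). Kdm6b, an H3K27 demethylase, was 1.28-fold higher (adjusted *p* = 0.0194), and its call was lost without Tat−/Meth replicate 3 (0.0614) or Tat−/Sal replicate 5 (0.0507).

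Arginine methyltransferases had 6 of 8 members higher and 0 lower (median 0.29, beside 0.14 over all genes). Prmt5, which places symmetric dimethyl marks on arginine, was 12.25, 12.38, 12.34, 12.40 and 12.38 in Tat−/Meth and 11.72, 11.82, 11.96, 11.86 and 11.87 in Tat−/Sal. The groups did not overlap and Prmt5 was 1.41-fold higher (log2 fold change 0.50, SE 0.0547, adjusted *p* = 6.83e-07). Prmt8 and Prmt9 were 1.26-fold and 1.24-fold higher (adjusted *p* = 0.00397 and 0.00148), and without scaling their estimates were −0.09 and −0.11. Prmt1, the main source of asymmetric dimethylarginine, was not called (log2 fold change −0.04, SE 0.285).

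Among 8 acetyltransferases 4 rose and 1 fell (median 0.16). Kat6a, of the MYST family, was 12.58, 12.55, 12.60, 12.62 and 12.48 in Tat−/Meth and 12.14, 12.20, 12.17, 12.09 and 12.25 in Tat−/Sal, without overlap and 1.31-fold higher (adjusted *p* = 2.77e-06). Kat6b was likewise 1.31-fold higher (adjusted *p* = 0.00525), whereas Kat5, the catalytic subunit of the NuA4 complex, was 1.19-fold lower (adjusted *p* = 0.00026). Kat2a and Kat2b were not called (log2 fold changes −0.14 and 0.12). Without scaling both Kat6 estimates were −0.03.

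Histone deacetylases had 5 of 11 members higher and 1 lower (median 0.04), and 2 members whose groups did not overlap, Hdac10 and Hdac11. Hdac10 was 10.47, 10.43, 10.49, 10.37 and 10.55 in Tat−/Meth and 10.02, 10.08, 10.22, 9.92 and 10.05 in Tat−/Sal, all higher (1.32-fold, adjusted *p* = 2.63e-05). Hdac11, the single class IV enzyme, was 1.31-fold higher (adjusted *p* = 0.000588). The class I enzymes Hdac1, Hdac2 and Hdac3 were 1.2, 1.24 and 1.19-fold higher (adjusted *p* = 0.00756, 0.0283 and 0.0336). The Hdac2 call was lost without Tat−/Meth replicate 1 or 5 or Tat−/Sal replicate 2 (adjusted *p* up to 0.0642), and that of Hdac3 in 6 of 20 such fits (up to 0.106, without Tat−/Meth replicate 2). All 5 estimates were below 0 without scaling (−0.02 to −0.18). Of the class IIa enzymes, which shuttle between nucleus and cytoplasm, Hdac5 was 15.17, 15.21, 15.23, 15.14 and 15.12 in Tat−/Meth and 15.18, 15.52, 15.43, 15.38 and 15.69 in Tat−/Sal. Tat−/Sal replicate 1 lay within the Tat−/Meth range, and Hdac5 was 1.2-fold lower (adjusted *p* = 0.00934). Hdac4, Hdac7 and Hdac9 were not called (log2 fold changes −0.15, −0.21 and 0.04).

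The array carried several probes for 25 members that were each well above background on all 20 arrays, and these probes did not always move together. The largest range between probes of 1 gene was found in Tet3, Kdm5c and Ehmt1, that is in 3 of the 4 members with a change above 2-fold. In the fit over single probes, the brightest Ehmt1 probe was at −1.28 (adjusted *p* = 3.84e-07) and the second, which the array design assigns to the same transcript, at 0.31 (SE 0.0939, adjusted *p* = 0.0171). The second Kdm5c probe was at 0.27 (adjusted *p* = 0.119), beside −1.35 for the brightest. A second Tet3 probe was at −0.20 (adjusted *p* = 0.45) and the dimmest, well above background on 10 of 20 arrays, at −0.04, beside −1.86. Values above therefore belong to the probe that stands for the gene, and not to every transcript of it. Dnmt3l had 1 probe, so no second reading was at hand.

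Other members had opposite or unequal probes as well. Kmt5b was at −0.38 on its brightest probe (adjusted *p* = 0.00696), and at 0.56 and 0.34 (adjusted *p* = 0.00514 and 0.105) on 2 probes assigned to another transcript. With the mean over probes Kmt5b turned to 0.17. Kdm2a, an H3K36 demethylase that was not called on its brightest probe (0.07), was at 1.26 on its second (SE 0.0721, adjusted *p* = 5.53e-10). Of the 3 Dnmt3b probes, 1 was called, at −0.73, and the others were at −0.44 (well above background on 17 arrays) and 0.07. Hdac1 probes were at 0.26, 0.80 and 0.19, all called. Over the 25 members the range between probes had a median of 0.283, was over 0.5 in 8 and under 0.25 in 11, and probes were called in opposite directions in 2, Ehmt1 and Kmt5b. The 2 Kat5 probes (−0.26 and −0.20, range 0.0556) and the 2 Prmt1 probes (−0.04 and −0.07, range 0.0216) were close to each other.

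**Figure D4:**
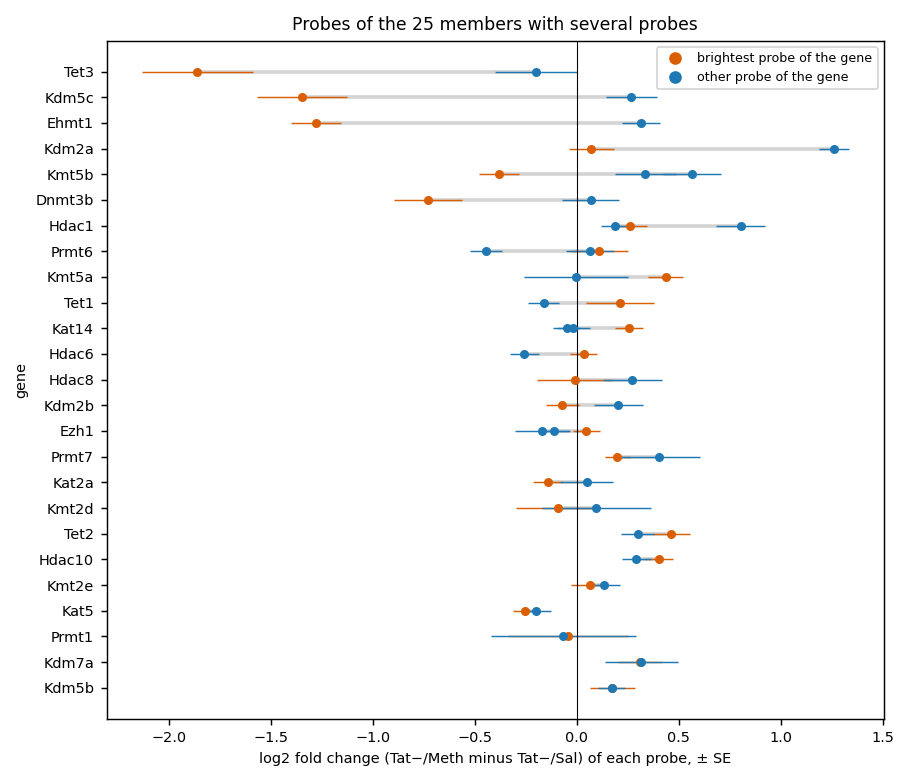
Log2 fold change in Tat−/Meth vs. Tat−/Sal (x axis, log2 units) of each probe of the members with several probes well above background on all arrays, 1 row per member, with the brightest probe marked. Probes of Tet3, Kdm5c, Ehmt1, Kdm2a and Kmt5b are the farthest apart, at ranges of 0.946 to 1.66.

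Tat in the context of Meth was compared next (Tat+/Meth vs. Tat−/Meth). This comparison shares the Tat−/Meth arrays with the first, so that a member far from the rest in those arrays appears in both with opposite signs, and the values of the 2 are given side by side only. On the probe that stands for the gene, Tet3, Kdm5c, Dnmt3l, Ehmt1 and Dnmt3b were more than 2-fold higher in Tat+/Meth, and Kdm1b had the largest lower value. In all 44 members were called (62%, against 54.4% of all genes), 13 higher (18.3%, against 16%) and 31 lower (43.7%, against 38.5%). Above 2-fold were 5 higher (7.04%, against 6.75%) and 0 lower (against 0.47%), and the groups did not overlap in 35 members (49.3%, against 38%). The members' median was −0.19, beside −0.15 over all genes. Of the calls 29.5% were higher, 24% under median scaling (6 higher, 8.45% against 9.5% of all genes, and 19 lower, 26.8% against 29.8%), and 100% without scaling (26 higher, 36.6% against 35%, and 0 lower, against 2.14%).

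Tet3 signal in Tat+/Meth was 9.86, 9.65, 9.60, 10.22 and 9.91, all above the Tat−/Meth arrays and 4.71-fold higher (log2 fold change 2.23, SE 0.262, adjusted *p* = 1.36e-06). Kdm5c was 13.88, 13.72, 13.74, 14.63 and 13.99, also above every Tat−/Meth array (1.61, SE 0.212, 3.05-fold, adjusted *p* = 5.16e-06). Dnmt3l was 8.27, 7.73, 7.69, 7.52 and 7.50 (1.58, SE 0.236, 2.99-fold, adjusted *p* = 2.1e-05). None of these 3 overlapped Tat−/Meth. Ehmt1 was 14.17, 13.73, 14.21, 14.18 and 13.82 (2.28-fold, adjusted *p* = 1.72e-07), and Dnmt3b was 7.42, 7.51, 7.46, 7.25 and 7.13 (2.06-fold, adjusted *p* = 2.75e-05), again without overlap. With the mean over probes the calls held but the values were 0.94 for Tet3, 0.77 for Kdm5c, 0.48 for Ehmt1 and 0.53 for Dnmt3b, all under 2-fold. In the fit over single probes, second probes were at 0.44 for Tet3 (adjusted *p* = 0.107), −0.07 for Kdm5c (0.724) and −0.23 for Ehmt1 (0.0736), and the other Dnmt3b probes at 0.55 and 0.01. With normexp background correction Dnmt3b was at 0.49 and Dnmt3l, which has a single probe, at 0.83. The other 8 higher members were Kdm8 (1.64-fold), Kmt5b, Kmt5c, Hdac5, Kat5, Setd1a, Hdac4 and Kat2a (1.45 to 1.13-fold). With the mean over probes Kmt5b lay below 0. The calls of Hdac4 and Kat2a were lost in 7 and 5 of 20 fits without 1 array (adjusted *p* up to 0.0887 without Tat−/Meth replicate 1, and up to 0.0834 without Tat+/Meth replicate 5).

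Of the 31 lower members, 30 were under 1.5-fold. Kdm1b, an H3K4 demethylase, was 10.70, 10.57, 10.59, 10.75 and 10.41 in Tat−/Meth and 10.08, 10.02, 10.01, 9.94 and 10.02 in Tat+/Meth. No array overlapped, and the log2 fold change was −0.59 (SE 0.0641, 1.5-fold, adjusted *p* = 5.6e-07), the largest lower value here. Tet2 (−0.52, adjusted *p* = 3.28e-05), Kmt5a (−0.51, 3.35e-05), Setd2 (−0.45, 1.31e-06), Kat6a (−0.40, 2.2e-06) and Prmt5 (−0.38, 1.22e-05) were lower as well. By family, beside 16% of all genes called higher and 38.5% lower, 6 of 8 arginine methyltransferases were lower and 0 higher, as were 6 of 11 deacetylases (2 higher), 6 of 17 demethylases (2 higher), 6 of 19 lysine methyltransferases (4 higher) and 5 of 8 acetyltransferases (2 higher). Without scaling every member lay 0.34 higher. Prmt1 was not called (−0.63, SE 0.285, adjusted *p* = 0.0681), and was called without Tat−/Meth replicate 5 (−0.88, 0.0076), Tat+/Meth replicate 1 (−0.79, 0.0291) or Tat+/Meth replicate 4 (−0.78, 0.0333).

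Tat alone was asked for in Tat+/Sal vs. Tat−/Sal. All Tat+/Sal arrays were on slide 3 and all Tat−/Sal arrays on slide 2, so this is a comparison of slides as well. The sole member called was Kdm1b, 1 of 71 (1.41%, against 1.42% of all genes). It was lower (against 0.649%), 0 members were higher (against 0.768%), and 0 were above 2-fold (against 0.0199% lower). Kdm1b was 10.33, 10.26, 10.24, 10.15 and 10.08 in Tat−/Sal and 10.00, 10.03, 9.91, 9.84 and 9.90 in Tat+/Sal. All 5 Tat+/Sal arrays were below all Tat−/Sal arrays, by little, and the log2 fold change was −0.28 (SE 0.0641, 1.21-fold, adjusted *p* = 0.0401). The call was lost in 10 of 20 fits that left out 1 array: Tat−/Meth 2 or 3, Tat−/Sal 1, 2 or 4, Tat+/Meth 2 or 3, or Tat+/Sal 3, 4 or 5 (adjusted *p* 0.0296 to 0.13 over the 20). It was also lost with slide as a fixed block (−0.22), where Tat+/Meth alone links the slides, and over 14 alternatives the adjusted *p* ran from 0.00325 to 0.998. Groups did not overlap in 2 members (2.82%, against 4.85%), Kdm1b and Setd2 (−0.20, adjusted *p* = 0.057). At an unadjusted *p* under 0.05 were 18 members (25.4%, against 20.5%).

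Tet3 in Tat+/Sal was 9.66, 9.49, 9.14, 11.08 and 9.86, and Kdm5c was 13.92, 13.67, 13.70, 15.03 and 14.56. Replicate 4 was the highest of the 5 in both. Their log2 fold changes against Tat−/Sal, 0.37 and 0.45, fell to 0.07 and 0.23 without that replicate, and neither was called. The values of Prmt5 (0.22, adjusted *p* = 0.0512), Dnmt1 (0.32, 0.0943), Hdac9 (−0.28, 0.0834) and Dnmt3aos (−0.59, 0.0962) did not pass the test.

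Meth in the context of Tat was read from Tat+/Meth vs. Tat+/Sal, where 0 of 71 members were called by limma (against 0% of all genes). At an unadjusted *p* under 0.05 were 6 members (8.45%, against 12.2%), and by the methods' t-test 10 before adjustment (14.1%, against 11%) and 0 after (against 0%). The members' median was −0.01, beside 0.00 over all genes. Prmt1 was 14.50, 14.19, 13.22, 14.45 and 12.94 in Tat+/Meth and 14.67, 14.75, 15.002, 14.50 and 14.70 in Tat+/Sal. Only replicates 3 and 5 of Tat+/Meth lay far below the rest, and the log2 fold change was −0.86 (adjusted *p* = 0.249); its second probe was at −1.03. Kdm4d, a dim H3K9 demethylase, was 6.29, 6.65, 6.42, 6.49 and 6.61 in Tat+/Meth and 6.16, 6.11, 5.84, 5.80 and 5.95 in Tat+/Sal. It was at 0.52 (adjusted *p* = 0.24), and its groups did not overlap, as in 2 members in all (2.82%, against 2.28%), the other being Hdac6. Kmt5a was at −0.29 (adjusted *p* = 0.219), Kmt5b at 0.27, Hdac8 at −0.38 and Kdm4b at −0.17. Within slide 3, with 2 Tat+/Meth and 5 Tat+/Sal arrays, 0 members were called and 5 had an unadjusted *p* under 0.05 (7.04%, against 4.92%), Prmt1 at −1.03 and Kdm4d at 0.58 among them.

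**Figure D5:**
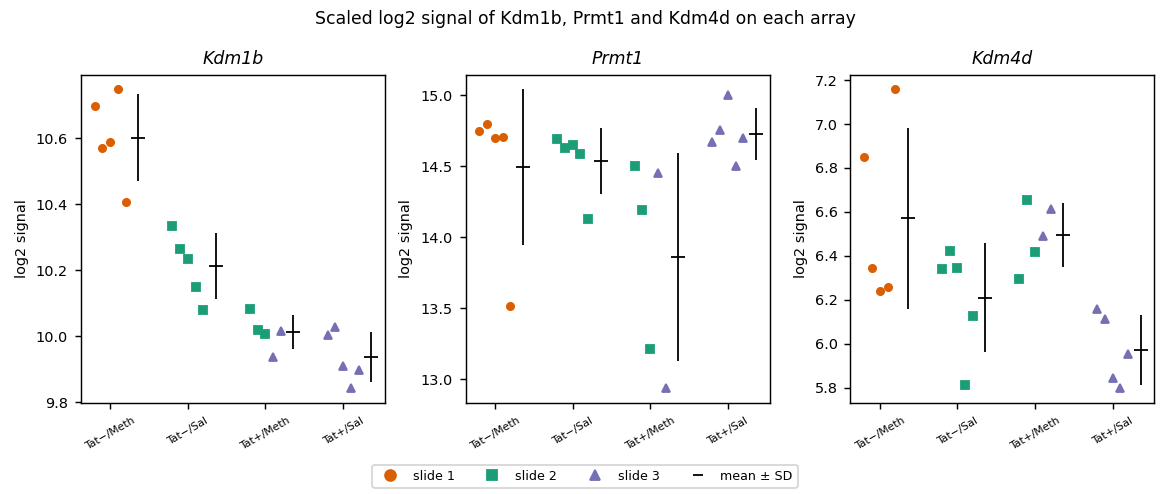
Log2 signal (y axis) of Kdm1b, Prmt1 and Kdm4d on each of the 20 arrays by group (x axis), with the group mean and SD (n = 5). Kdm1b is highest in Tat−/Meth and lowest in Tat+/Sal and Tat+/Meth, Prmt1 has low arrays in Tat−/Meth and Tat+/Meth, and Kdm4d is lower in Tat+/Sal than in Tat+/Meth on every array.

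Tat and Meth sensitization together were compared with neither in Tat+/Meth vs. Tat−/Sal, where by the methods both groups had the Meth challenge. By limma 0 of 71 members were called (against 0% of all genes), and at an unadjusted *p* under 0.05 there were 6 (8.45%, against 7.79%). They were Prmt1 (−0.68), Hdac9 (−0.25), Kdm1b (−0.20), Setd2 (−0.11), Prmt5 (0.12) and Dnmt1 (0.25). By the methods' t-test there were 7 before adjustment (9.86%, against 9.19%) and 0 after (against 0%). Tet3, Kdm5c, Ehmt1 and Dnmt3l were at 0.37, 0.26, −0.09 and −0.39, none called. Leaving out Tat+/Meth replicate 5 moved Prmt1 to −0.45. The groups overlapped in every member (against 1.68% of all genes that did not). Within slide 2 (3 Tat+/Meth and 5 Tat−/Sal arrays) 0 members were called and 5 had an unadjusted *p* under 0.05 (7.04%, against 6.61%), with Dnmt3b at 0.42 and Kdm8 at 0.20. Between the 2 and the 3 Tat+/Meth arrays of slides 3 and 2, 0 members were called and 1, Ezh2, had an unadjusted *p* under 0.05 (1.41%, against 4.05%).

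The interaction, which sets the Meth effect with Tat against the Meth effect without it, was called in 31 members (43.7%, against 36% of all genes), 10 higher (14.1%, against 12.4%) and 21 lower (29.6%, against 23.6%). Above 2-fold were 6 higher (8.45%, against 6.88%): Dnmt3l 1.97, Tet3 1.86, Ehmt1 1.24, Kdm5c 1.16, Dnmt3b 1.06 and Dnmt3aos 1.03. Among the members called lower, Kmt5a (−0.73) and Prmt5 (−0.60) had the largest values, and Prmt1 (−0.82) was not called. The same Tat−/Meth arrays enter here, on slide 1 alone. At an unadjusted *p* under 0.05 were 37 members (52.1%, against 45.3%). Without scaling, which moved every member by 0.49, 30 were called higher (42.3%, against 39.1% of all genes) and 0 lower (against 0.304%). With the mean over probes 6 of the 10 higher members kept their call. Kdm5c (0.41, adjusted *p* = 0.0715), Dnmt3b (0.60, 0.0743), Kat5 (0.089, 0.323) and Kmt5b (−0.055) did not, and Tet3 and Ehmt1 were at 0.79 and 0.58. Of the 21 lower members, 16 kept it. Median scaling kept the call of 5 of the 10 higher and 4 of the 21 lower members, and normexp that of 9 and 14. Under median scaling 12.7% of members were called, against 17% of all genes. Among the calls lost were Kdm5c with median scaling (0.93, adjusted *p* = 0.056) and Dnmt3b with normexp (0.46, 0.058).

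Other genes of the same pathways were read from fixed lists of 84 genes, of which 83 were tested. In Tat−/Meth vs. Tat−/Sal 33 were called higher (39.8%, against 35% of all genes) and 10 lower (12%, against 15.3%), with a median of 0.18 beside 0.14 over all genes, and 1 changed more than 2-fold, the H3K9 methyltransferase Suv39h2 (−1.10, adjusted *p* = 4.07e-06). The smaller lists are read beside the same shares of all genes. Of 7 sirtuins, the NAD-dependent deacetylases, 3 were higher and 1 lower on that scale. The paper, with its own processing and limits, reports lower transcripts of all sirtuins after Meth, and of Sirt1 by qPCR. Of 5 coactivator acetyltransferases 2 were higher and 1 lower, of 17 subunits of deacetylase corepressor complexes 7 and 1, and of 11 readers and repair proteins of DNA methylation 6 and 1. Of 9 partners of Polycomb repressive complex 2, 3 were higher and 0 lower, of 6 partners of H3K4 methyltransferases 2 and 1, of 6 bromodomain readers 3 and 1, of 8 other demethylases 3 and 1, and of 14 other methyltransferases 4 and 3. In Tat+/Meth vs. Tat−/Meth 9 of the 83 were higher (10.8%, against 16%) and 36 lower (43.4%, against 38.5%). In Tat+/Sal vs. Tat−/Sal 1 was lower (1.2%, against 0.649%), and 0 were called when Tat+/Meth was set against either saline group.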

How the data were processed

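The 20 array files hold spot intensity values that the authors deposited as written by Feature Extraction 10.7.3.1 (per the file headers), with a background-subtracted processed signal per spot, and the authors' own values in the series matrix served as an alternative. Each array has 62976 spots (3671 controls) and 55681 probes, of which 27656 carry one of 20972 symbols, named through the RefSeq accession of the probe. Spots that the scanner software marked as outliers were left out (4278 over all arrays). The processed signals of the authors were taken as log2, averaged over spots of a probe and scaled to each array's 75th percentile. For a gene with several probes the one with the highest mean over all arrays was used, and genes with a group mean of at least 6 in 1 group or more were tested. The number of arrays limits the precision.

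All 4 groups were fitted in limma 3.58.1 (R 4.3.3, Python 3.11.15) with 1 mean per group, tested on simulated data beforehand, with Benjamini-Hochberg adjustment over all genes. The simulated arrays had independent values, few changed genes and no slide effect. They cannot show how the fit performs where a group is alone on its slide. Nothing in the labels states whether arrays of a group came from separate litters or days, so *p* values measure the spread between these samples. A pairing by replicate number was checked and was not used.

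The members and all gene lists were chosen with earlier results of these data known. The members named are, per family, the 3 with the largest change in Tat−/Meth vs. Tat−/Sal, those called without Tat−/Meth arrays (or the 3 with the smallest *p*), those changed above 2-fold, enzymes known from work on psychostimulants or striatum, and the 5 with the most unequal probes; Setd1a, Setd2, Kdm1a, Hdac6, Hdac7, Hdac8 and Kdm4b were named after their values were seen. Alternatives were 3 other scalings, normexp with an offset of 50, the series matrix, other filters, the mean over probes, single probes, slide and replicate blocks, only the groups compared, the methods' t-test, other thresholds, and each array left out. Columns of the authors' own comparisons were not used.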

Additional observations from a re-analysis of the deposited data

Results flagged for a closer look

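In 7 of 152 groups of 5 arrays examined, 1 array stood apart from the other 4, where chance gives about 5%. Tat−/Meth replicate 5 did so in 4 members: Dnmt3aos was 7.91 (others 6.76 to 7.07), Dnmt3l 7.02 (5.76 to 6.07), Tet3 8.26 (7.41 to 7.56) and Prmt1 13.52 (14.70 to 14.80). On that array 70.8% of probes were well above background, against 56.4 to 60.2% on the other arrays of slide 1, and the part of this in the values was not tested. Prmt1 was also low on Tat−/Sal replicate 5, at 14.13 (others 14.59 to 14.69). On Tat+/Meth replicate 4 Hdac3 was 10.45 (10.61 to 10.67) and Prmt8 was 11.03 (11.31 to 11.39).

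The interaction term in limma, which sets the Meth effect in Tat+ mice against that in Tat− mice, was called in 21 of the 38 members named. These were named partly for large changes in these data, so that 21 of 38 is not a share of the families. Over all members it was called in 31 of 71 (43.7%, against 36% of all genes). It was above 0 in Dnmt3l (1.97), Tet3 (1.86), Ehmt1 (1.24), Kdm5c (1.16), Dnmt3b (1.06), Dnmt3aos (1.03), Kdm8 (0.72), Kmt5b (0.66), Kmt5c (0.39) and Kat5 (0.19). It was below 0 in Kmt5a (−0.73), Prmt5 (−0.60), Hdac10 (−0.53), Tet2 (−0.52), Kdm6b (−0.49), Hdac11 (−0.44), Kat6a (−0.40), Prmt8 (−0.33), Kdm1b (−0.31), Prmt9 (−0.28) and Dnmt3a (−0.26). Each of these rests on the Tat−/Meth arrays, whose group and slide cannot be told apart. The calls of Dnmt3a, Kat5 and Prmt8 were lost in 12 of 20 fits without 1 array, that of Prmt9 in 10 and that of Kdm6b in 8 (adjusted *p* up to 0.094, 0.07, 0.0718, 0.0782 and 0.0591). With the mean over probes the calls of Kdm5c (0.41, adjusted *p* = 0.0715), Dnmt3b (0.60, 0.0743), Kat5 (0.089, 0.323), Kmt5a (−0.31, 0.131) and Dnmt3a (−0.26, 0.0516) were lost and Kmt5b turned to −0.055. Of all 31 members called (10 higher, 21 lower), median scaling kept 5 higher and 4 lower, and normexp kept 9 and 14. Among those lost were Kdm5c with median scaling (0.93, 0.056) and Dnmt3b with normexp (0.46, 0.058).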

How the results depend on the processing

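The number of members called was 41 in Tat−/Meth vs. Tat−/Sal, 44 in Tat+/Meth vs. Tat−/Meth and 31 for the interaction. Median scaling gave 17, 25 and 9 (23.9%, 35.2% and 12.7%, against 28.1%, 39.3% and 17% of all genes), a limit of 2-fold gave 4, 5 and 6 (5.63%, 7.04% and 8.45%, against 6.85%, 7.22% and 7.44%), and an adjusted *p* under 0.01 with 3-fold gave 2, 2 and 2 (2.82% each, against 3.4%, 3.62% and 3.6%). No scaling gave 26 in Tat+/Meth vs. Tat−/Meth (36.6%, against 37.1%). The members' median became −0.29, 0.15 and 0.33 in these 3 with no scaling, and −0.34 (Tat+/Meth vs. Tat−/Meth) and −0.39 (interaction) with median scaling. In Tat+/Sal vs. Tat−/Sal the 1 call became 3 with quantile normalization (4.23%, against 3.23%), 12 with slide as a random block (16.9%, against 15.4%) and 13 by the methods' t-test without adjustment (18.3%, against 18.7%). It became 0 with median scaling, no scaling, normexp, the series matrix, no filter, slide as a fixed block, the 2 groups alone, the t-test after adjustment and both higher limits, and its median was −0.16 with no scaling. For the random block the correlation within a slide was estimated at −0.0623, below 0, so that this setting makes no allowance for a shift between slides. The methods' t-test without adjustment gave 10 (Tat+/Meth vs. Tat+/Sal) where limma gave 0, while the 0 of Tat+/Meth vs. Tat−/Sal became 7.

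Without 1 array, calls for Tat−/Meth vs. Tat−/Sal numbered 37 to 42 (52.1 to 59.2%, against 46.1 to 51.3% of all genes). Those for Tat+/Meth vs. Tat−/Meth numbered 40 to 45 (56.3 to 63.4%, against 49.8 to 55.1%) and those for the interaction 24 to 35 (33.8 to 49.3%, against 32.8 to 38%). Those for Tat+/Sal vs. Tat−/Sal numbered 0 to 6 (6 without Tat−/Sal replicate 3, 8.45% against 3.62%), and those for both other comparisons 0 (against at most 0.00662%). The medians ran from 0.13 to 0.16, from −0.19 to −0.16, from −0.18 to −0.11, from −0.04 to −0.00, from −0.01 to 0.02 (Tat+/Meth vs. Tat+/Sal) and from −0.03 to 0.00 (Tat+/Meth vs. Tat−/Sal). With the replicate number as a block, calls were 43, 46, 30, 4, 0 and 0 in the same order. The first 4 were 60.6%, 64.8%, 42.3% and 5.63% of members, against 52.6%, 56.3%, 38.4% and 3.66% of all genes, and the others stood against 0%. Same-numbered arrays of different groups deviated together at r = −0.176 to 0.358 (median 0.0436, 8 of 30 pairs over 0.1). Arrays of other numbers had a median of −0.0133, and 10 of 20 arrays were closest to their own number. These values do not settle whether the numbers pair the arrays.

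No scaling moved every member by one amount in a comparison (−0.42, 0.34 and 0.49 in the 3 with Tat−/Meth), so that the sign turned in 21, 13 and 17 of the 38 members named. Values follow for those of them called in at least 1 of the 2 settings (16, 7 and 10). They turned in Tat−/Meth vs. Tat−/Sal for Dnmt3a (−0.11), Ehmt2 (−0.29), Ezh1 (−0.37), Hdac1 (−0.16), Hdac2 (−0.12), Hdac3 (−0.18), Hdac9 (−0.38), Hdac10 (−0.020), Hdac11 (−0.031), Kat6a (−0.027), Kat6b (−0.026), Kdm1b (−0.031), Kdm2a (−0.35), Kdm6b (−0.067), Prmt8 (−0.093) and Prmt9 (−0.11). In Tat+/Meth vs. Tat−/Meth it turned for Ehmt2 (0.29), Hdac1 (0.0051), Hdac3 (0.064), Hdac9 (0.049), Hdac11 (0.061), Kat2b (0.021) and Prmt8 (0.10). For the interaction it turned for Dnmt3a (0.22), Ehmt2 (0.41), Ezh1 (0.42), Hdac4 (0.47), Hdac9 (0.47), Hdac11 (0.043), Kat6a (0.086), Kdm1b (0.17), Prmt8 (0.15) and Prmt9 (0.21), and Kat5 turned with median scaling (−0.042). The mean over probes turned Kmt5b in the same 3, to 0.17, −0.10 and −0.055. The cause was not tested beyond the construction of each alternative. Tet3, Kdm5c, Ehmt1 and Dnmt3l kept their calls in Tat−/Meth vs. Tat−/Sal under 13 alternatives with 1 value per gene, at −2.28 to −0.70, −1.77 to −0.54, −1.70 to −0.48 and −2.39 to −1.14. These had a limit of 0.05 on the adjusted *p*, or on the unadjusted *p* of the methods' t-test, and leave out both higher limits. They also leave out single probes, where second probes of Tet3 and Kdm5c were not called and that of Ehmt1 was called higher.

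Slide as a fixed block could not be fitted for comparisons with Tat−/Meth. Dim members are measured less well: in Tat−/Meth, Dnmt3l, Dnmt3b, Kdm4d, Dnmt3aos, Kmt2d and Tet3 lay within 2 log2 units of the limit for testing (means of 6.16 to 7.61), while 70 of 71 were well above background on all arrays.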
